A study of Mus musculus with 20 samples.

Results

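The oxidative phosphorylation subunits are the nuclear-encoded proteins of the respiratory chain and of the ATP synthase. Of the 17097 genes measured, 79 are covered here. They were taken by gene symbol: a Ndufa, Ndufb, Ndufc, Ndufs or Ndufv name, but no Ndufaf name, for complex I (34 genes), Sdha to Sdhd for complex II (4 genes), Uqcr names for complex III (7 genes), Cox4 to Cox8 names for complex IV (17 genes) and Atp5 names for complex V (17 genes). The rule uses symbols alone, so a subunit with another kind of name, such as Cyc1 of complex III, is not among the 79. Cyc1 was read with the related genes for electron carriers. RNA from sorted dermal fibroblasts of 20 female mice was measured on 1 array per mouse, 5 mice in each of 4 groups. Old CR-ND mice (labelled CR/ND - Old) spent 7 months on 30% caloric restriction and then 2 months on a normal diet. Old CR mice (ND/CR - Old) ate the normal diet for 2 months and were restricted by 30% for the 7 months that followed, up to collection. Old ND mice (ND - Old) ate the normal diet freely for 9 months. All old mice were 9 months old at the start and 18 months old at collection, so the Old CR-ND and Old CR groups differ in the order of the diets. Young ND mice (ND - Young) were 4 weeks old at the start and ate the normal diet freely for 4 weeks, and the labels do not give their age at collection. The sort kept cells positive for Pdgfra and CD34 and negative for CD45, CD117, CD24, CD31 and EpCam, from dermis freed of its subdermis, and RNA of 10000 cells went through 20 amplification cycles. Values are log2 array levels per gene, differences are log2 differences of group means ± the standard error of limma, and n was 5 arrays per group. A subunit is said to have risen or fallen only where its limma p, adjusted over all 17097 genes, was under 0.05. In RNA from pooled cells, fewer cells of a type and less RNA per cell cannot be told apart.

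Complexes I and II pass electrons from NADH and succinate to ubiquinone, complex III passes them on to cytochrome c, and complex IV passes them from cytochrome c to oxygen. Complexes I, III and IV pump protons across the inner mitochondrial membrane, and complex V, the ATP synthase, uses the return flow to make ATP. Most subunits are encoded in the nucleus, and some, above all in complex IV, exist as isoforms made in particular tissues such as heart and skeletal muscle, lung or testis.

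Array medians ranged over 5.27 to 5.34, and none of the arrays duplicated another. In the titles the numbers that follow the word specimen form 2 series, 13 arrays in the first and 7 in the second. The labels do not say what a series stands for. Old CR-ND, Old ND and Young ND contributed 3 arrays to the first series and 2 to the second each. Old CR contributed 4 to the first and 1 to the second. The subunits differed between the series more often than other genes: with the groups held constant 36 of 79 passed the threshold (45.6%, 32 higher and 4 lower in the second series), against 17.2% of all genes (5.73% higher in the second). Their median difference, second minus first series, was 0.14, against -0.02 for all genes. The largest was that of Uqcrb, a small subunit of complex III, at 1.08 (adjusted p = 7.33e-05, named after its values were seen). Of 9 fibroblast markers 3 fell in Old ND against Young ND, the sort marker Cd34 by 0.30 (adjusted p = 0.0303), Col1a1 by 0.48 (adjusted p = 0.000264) and Col3a1 by 0.27 (adjusted p = 0.00808). Col1a1 also fell against Young ND by 0.50 in Old CR (adjusted p = 0.000156) and by 0.41 in Old CR-ND (adjusted p = 0.00203). Col3a1 fell by 0.35 in Old CR against Young ND (adjusted p = 0.000917). The group means of Cd34 spanned 11.01 to 11.30 and those of Pdgfra 5.71 to 6.20. Of 8 immune markers Csf1r fell by 1.20 (adjusted p = 1.41e-07) and Cd74 rose by 0.48 (adjusted p = 0.0372) in Old ND against Young ND, and Cd74 fell by 0.61 in Old CR against Old ND (adjusted p = 0.0276). Group means of the pan-leukocyte gene Ptprc lay between 3.24 and 3.26. Of 6 endothelial markers Tek rose by 1.02 in Old ND against Young ND (adjusted p = 0.0239), while Kdr differed by -0.91 without passing, and the median of the 6 was 0.06. Against Young ND, Tek also rose by 1.63 in Old CR and by 1.43 in Old CR-ND. In Old CR against Young ND the immune marker Cd68 rose by 1.03 (adjusted p = 0.039) and Csf1r fell by 0.97 (adjusted p = 2.85e-06). Csf1r fell by 0.92 in Old CR-ND against Young ND (adjusted p = 9.32e-06). The summed level of 10 keratinocyte markers spanned 9.48 to 12.16 in Old ND and 9.88 to 11.23 in Young ND, and none of the 10 passed there. The part of these markers in the subunits' differences was not tested. None of 14 striated muscle markers passed the threshold in any comparison, and their summed level spanned 8.94 to 9.06 in Old CR-ND, 8.94 to 9.07 in Old CR, 8.96 to 9.09 in Old ND and 8.96 to 9.01 in Young ND (log2 of the sum).

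The median position of the 79 subunits on each array, relative to each gene's mean over all 20 arrays, summarises the family. It was 0.05, -0.05, -0.03, 0.14 and -0.12 on the 5 Old CR-ND arrays. It was -0.04, -0.03, -0.02, 0.01 and 0.09 on the Old CR arrays, -0.14, -0.28, -0.15, 0.04 and 0.04 on the Old ND arrays, and -0.003, 0.06, -0.02, 0.12 and 0.33 on the Young ND arrays. The 3 Old ND arrays of the first series were the lowest of all 20, the 2 Old ND arrays of the second series lay among those of the other groups, and Old ND overlapped each of the other groups.

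**Figure D1:**
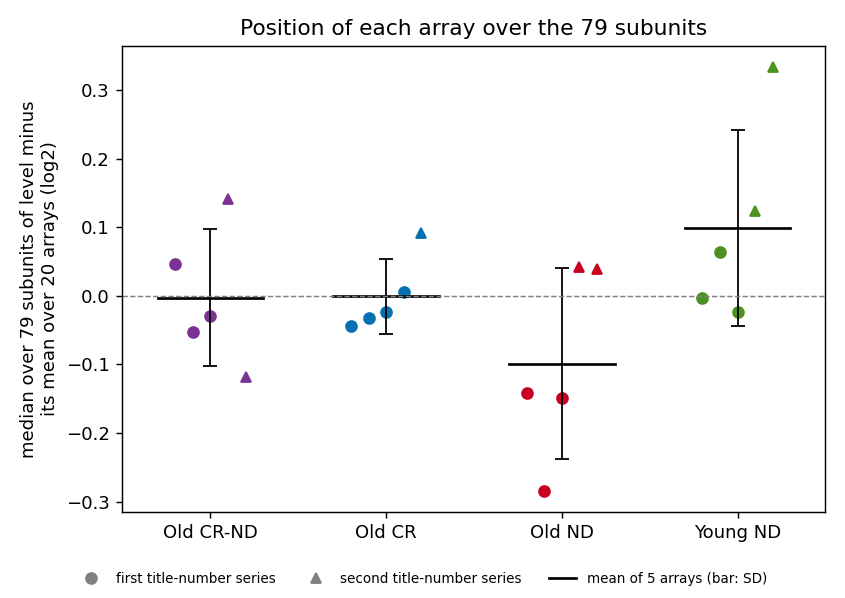
Median over the 79 subunits of the log2 level minus the gene's mean over 20 arrays (y axis), for each array by group (x axis), with circles for the first and triangles for the second title-number series, the group mean as a line and the SD as a bar (n = 5). The 3 first-series Old ND arrays lie lowest, at -0.14, -0.28 and -0.15, and the highest array is a second-series Young ND array at 0.33.

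Old ND was set against Young ND for the question of age under free feeding. Of the 79 subunits, 17 fell and 1 rose in Old ND. That is 21.5% lower and 1.27% higher, against 6.49% lower and 4.45% higher among all genes (10.9% either way). Of the 79 subunits, 76 had a mean level above that of the median gene, and the share of genes passing was larger without dim genes. With genes whose highest group mean was below 5 left out, 19 of 77 subunits passed, against 16.5% of the genes kept. With those below 6 left out, 21 of 76 subunits passed, against 21.0% of the genes kept. Including those short of the threshold, 67 of 79 differences were below 0 (84.8%, against 49.1% of all genes), and the median was -0.20, against 0.00 for all genes. Most falls were small, between 1.20-fold and 1.52-fold, and Ndufa4l2 alone among those that fell passed 2-fold. All 5 Old ND values lay below all 5 Young ND values for 8 subunits, Ndufa4l2, Ndufv3, Ndufa11, Ndufb4, Sdhb, Uqcr11, Cox6a1 and Cox7a1, against 4.54% of all genes. They lay above for 1, Cox6b2, against 2.84% of all genes. With the arrays normalized once more by quantiles, 12 fell and 3 rose (Cox6b2, Sdha and Cox7a2l), and the median was -0.12.

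**Figure D2:**
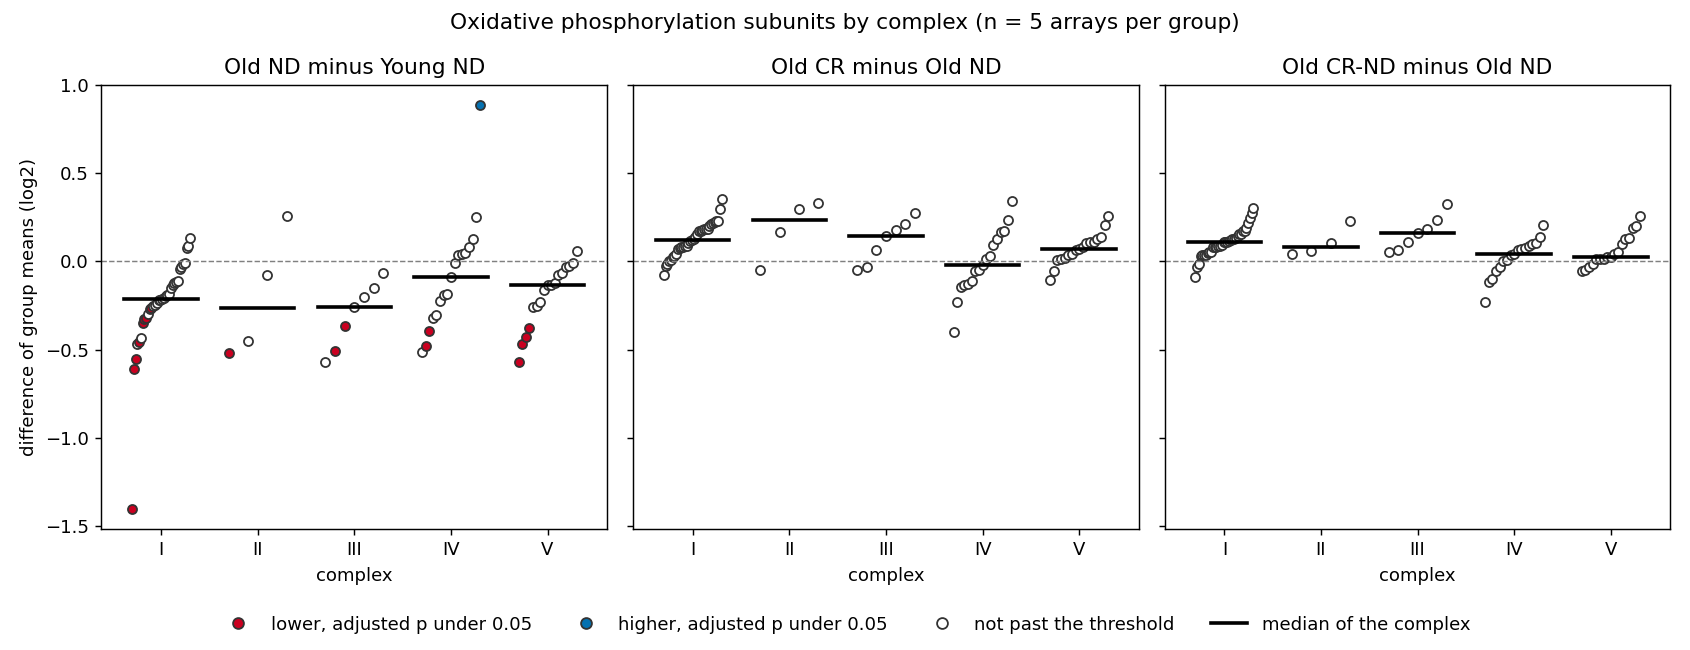
Log2 difference of group means (y axis) for each subunit, sorted within its complex (x axis), in 3 comparisons, each point 1 gene and n = 5 arrays per group. Filled points passed an adjusted p of 0.05, red lower and blue higher, and black lines are the medians of a complex. In Old ND minus Young ND every complex has a median below 0 and 18 points are filled, and in the other panels none is.

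The promoters of 5 of the 9 subunits whose Old ND and Young ND values did not overlap are given here, each with 250 bases before and 50 after the RefSeq transcription start (GRCm38.p6), to show the motifs they hold of 3 that were searched. Cox6a1, Sdhb, Uqcr11 and Ndufa11 fell and Cox6b2 rose. Capitals mark the NRF-1 motif, a palindrome of GCGC, a pair of any bases and GCGC again, and CCGGAAG, a site of ETS factors such as GABP, which reads CTTCCGG on the other strand. AAGATGGCG, a YY1 site, was searched on both strands as well and is in none of these windows. No marked motif overlaps another here. The windows shown do not stand for those left out of the 9, all of which fell. Among these, Ndufv3 and Cox7a1 hold none of the 3 motifs, Ndufb4 holds the NRF-1 motif and Ndufa4l2 has no window.
Cox6a1 (chr5:115348909-115349208, minus strand): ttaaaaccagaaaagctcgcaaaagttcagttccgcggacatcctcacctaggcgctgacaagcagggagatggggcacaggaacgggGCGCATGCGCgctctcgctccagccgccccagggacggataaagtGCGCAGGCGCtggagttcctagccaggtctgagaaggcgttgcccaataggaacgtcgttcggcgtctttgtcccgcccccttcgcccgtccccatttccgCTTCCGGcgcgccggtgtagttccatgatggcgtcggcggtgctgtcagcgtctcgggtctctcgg
Sdhb (chr4:140961021-140961320, plus strand): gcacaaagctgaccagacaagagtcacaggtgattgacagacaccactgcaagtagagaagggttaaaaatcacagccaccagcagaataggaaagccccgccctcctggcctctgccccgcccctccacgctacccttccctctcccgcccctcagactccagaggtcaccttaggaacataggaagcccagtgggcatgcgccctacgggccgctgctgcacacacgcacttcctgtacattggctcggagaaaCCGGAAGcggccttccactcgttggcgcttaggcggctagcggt
Uqcr11 (chr10:80406772-80407071, minus strand): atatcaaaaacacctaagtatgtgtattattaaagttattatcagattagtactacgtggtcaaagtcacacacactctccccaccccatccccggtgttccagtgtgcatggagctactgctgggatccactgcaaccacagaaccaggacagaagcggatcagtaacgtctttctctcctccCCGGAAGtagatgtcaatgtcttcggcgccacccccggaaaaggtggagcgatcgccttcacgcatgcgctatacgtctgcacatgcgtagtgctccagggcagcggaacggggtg
Ndufa11 (chr17:56717512-56717811, plus strand): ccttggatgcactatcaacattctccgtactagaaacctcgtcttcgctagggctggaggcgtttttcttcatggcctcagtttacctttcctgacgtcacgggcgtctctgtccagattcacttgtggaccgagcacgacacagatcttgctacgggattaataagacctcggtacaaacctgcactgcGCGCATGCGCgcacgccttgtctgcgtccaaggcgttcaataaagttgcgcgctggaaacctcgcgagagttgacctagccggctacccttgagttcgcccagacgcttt
Cox6b2 (chr7:4753045-4753344, minus strand): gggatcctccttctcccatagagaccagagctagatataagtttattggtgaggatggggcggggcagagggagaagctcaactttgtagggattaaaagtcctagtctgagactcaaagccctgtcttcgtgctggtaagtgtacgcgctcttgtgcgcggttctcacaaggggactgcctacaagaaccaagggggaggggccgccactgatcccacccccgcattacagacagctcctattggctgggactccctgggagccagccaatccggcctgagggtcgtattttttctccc
By gene ID 64 of the 79 subunits matched the promoter table, with 69 windows. Without an entry were Ndufa2, Ndufa4l2, Ndufb9, Ndufs1, Sdhc, Uqcrb, Uqcrc2, Uqcrq, Cox4i1, Cox4i2, Cox6c, Cox8c, Atp5a1 and Atp5mpl, and Cox6a2. The NRF-1 motif was in 27.5% of the subunits' windows, against 9.69% of the windows of all genes on the array and 6.23% of all 32851 windows. CCGGAAG was in 21.7%, against 13% and 8.86%, and AAGATGGCG in 10.1%, against 2.13% and 1.40%. Of the 17 subunits that fell, 15 had a window, of which 5 held the NRF-1 motif (33.3%), 5 held CCGGAAG (33.3%) and 1 held AAGATGGCG (6.67%). These matches describe the letters only.

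In complex I, 8 of 34 subunits fell and 0 rose in Old ND, with a median of -0.21. None of the 6 core subunits measured, the conserved nuclear-encoded proteins of the matrix arm, was among them, against 8 of 28 other subunits. This contrast was not tested. Of the 6 core subunits, 2 had an unadjusted p under 0.05, as had 3924 of all 17097 genes. The medians were closer, -0.166 for the core and -0.225 for the others. Those 28, and the 8 that fell, include Ndufa4 and Ndufa4l2, which are taken up below. Averaged over its probe sets, the core subunit Ndufv2, named after its values were seen, differed by -0.26 and passed (adjusted p = 0.00519). Ndufv1, which binds NADH, had a mean of 9.78 ± 0.08 in Old ND, against 9.65 ± 0.16 in Young ND (SD), a difference of 0.13 ± 0.08 (adjusted p = 0.376). Ndufs1, the large iron-sulfur protein, had a mean of 6.82 ± 0.15 in Old ND, against 6.85 ± 0.09 in Young ND, a difference of -0.03 ± 0.09 (adjusted p = 0.893). Among the accessory subunits, Ndufv3, of the NADH-binding arm, had levels of 9.87, 9.80, 9.94, 9.71 and 9.79 in Old ND, against 10.53, 10.67, 10.30, 10.10 and 10.27 in Young ND. Each Old ND array was below every Young ND array, and Ndufv3 fell by 0.55 ± 0.11 (adjusted p = 0.00211). Ndufa11, of the membrane arm, had levels of 8.63, 8.47, 8.47, 8.55 and 8.48 in Old ND, against 8.79, 8.75, 8.72, 8.73 and 8.92 in Young ND. These did not overlap either, with a fall of 0.26 ± 0.07 (adjusted p = 0.0121), but its dimmer probe set differed by 0.19 and the mean of both by -0.04 (adjusted p = 0.779). Ndufa2 fell by 0.32 ± 0.09 (adjusted p = 0.0228), and the remaining falls were those of Ndufa3 (-0.45), Ndufs4 (-0.35) and Ndufb4 (-0.32), all 3 named after their values were seen.

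Ndufa4 and Ndufa4l2 carry complex I names, although Ndufa4 is known as a subunit of complex IV, and Ndufa4l2 is its paralogue, induced by hypoxia through HIF-1. Ndufa4l2 had levels of 8.64, 8.65, 8.44, 8.79 and 8.75 in Old ND, against 10.02, 9.93, 10.07, 10.11 and 10.14 in Young ND. The lowest Young ND array was above the highest Old ND array by more than 1 log2 unit, and the fall of 1.40 ± 0.10 (2.64-fold, adjusted p = 2.27e-08) was the largest of the 79. It was -1.43 within the first title-number series and -1.355 within the second. Ndufa4l2 is also known as abundant in pericytes of mouse brain, and of 4 measured smooth muscle and pericyte markers Des fell by 0.35 ± 0.11 (adjusted p = 0.0407) while Rgs5 had a mean of 4.92 in Old ND, against 4.86 in Young ND. The summed level of these markers spanned 7.11 to 7.33 in Old ND and 7.23 to 7.49 in Young ND, and its part in the result was not tested. Ndufa4 had levels of 8.50, 8.30, 8.29, 8.75 and 8.95 in Old ND, against 8.96, 9.15, 8.75, 9.33 and 9.64 in Young ND. The groups overlapped only through the 2 second-series Old ND arrays, and Ndufa4 fell by 0.61 ± 0.15 (1.52-fold, adjusted p = 0.01).

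Complex II is also succinate dehydrogenase of the citric acid cycle, and 1 of its 4 subunits fell. Sdhb, the iron-sulfur subunit, had levels of 8.36, 8.35, 8.43, 8.72 and 8.66 in Old ND, against 8.88, 9.23, 8.94, 8.91 and 9.14 in Young ND. No Old ND array reached the lowest Young ND array, and Sdhb fell by 0.52 ± 0.08 (1.43-fold, adjusted p = 0.000247). It differed by -0.64 within the first series and by -0.335 within the second. Sdha, the flavoprotein, went the other way, at 9.25 ± 0.12 in Old ND and 9.00 ± 0.16 in Young ND, but its difference of 0.26 ± 0.08 missed the threshold (adjusted p = 0.0560). The membrane anchor Sdhc differed by -0.45 ± 0.15 (adjusted p = 0.0507), with -0.70 within the first series and -0.08 within the second. With the title-number series as a block both passed, Sdha at an adjusted p of 0.0472 and Sdhc at 0.0416. The other anchor, Sdhd, had a mean of 4.95 in Old ND, against 5.03 in Young ND, below the median gene level of 5.88.

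In complex III, all 7 differences were below 0 and 2 subunits fell, both small proteins without redox centres. Uqcr11 had levels of 8.33, 8.07, 8.35, 8.24 and 8.40 in Old ND, against 8.89, 8.81, 8.54, 8.70 and 9.00 in Young ND. The groups did not overlap, and Uqcr11 fell by 0.51 ± 0.08 (1.42-fold, adjusted p = 0.000267), with -0.50 and -0.53 within the first and second series. Uqcr10 fell by 0.37 ± 0.11 (adjusted p = 0.0281). Uqcrq had the largest difference of the complex, -0.57 ± 0.19, short of the threshold (adjusted p = 0.0564), and its 3 dimmer probe sets, at or below a mean of 5.00, gave 0.09, 0.06 and -0.09. With the title-number series as a block Uqcrq passed (adjusted p = 0.00176). The Rieske iron-sulfur protein Uqcrfs1 differed by -0.26 ± 0.14, and the core proteins Uqcrc1 and Uqcrc2 by -0.15 ± 0.08 and -0.06 ± 0.08, none past the threshold (adjusted p = 0.311, 0.282 and 0.695).

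**Figure D3:**
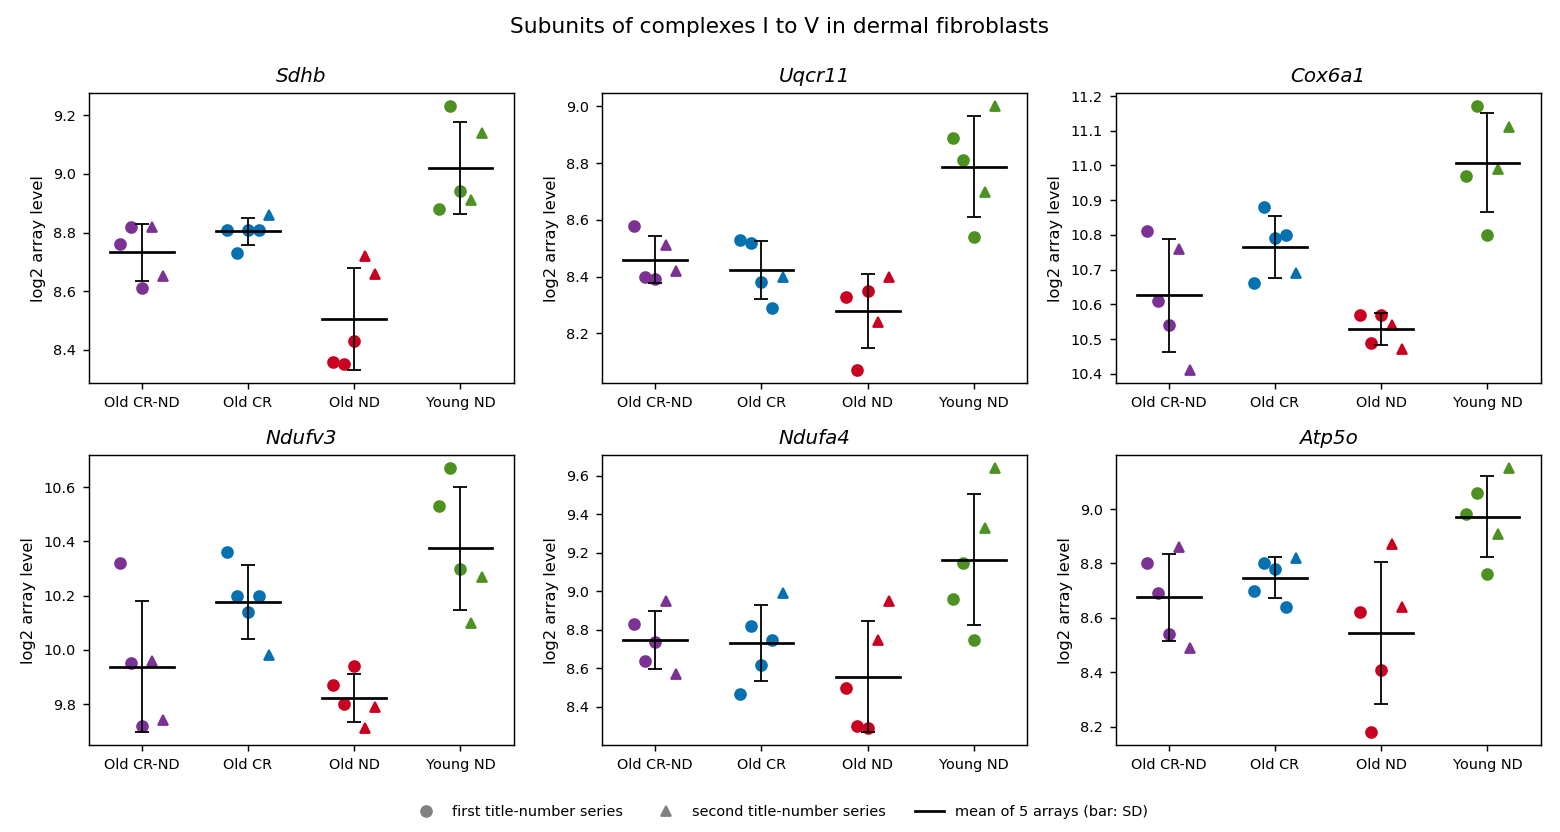
Log2 array levels (y axis) of 6 subunits that fell in Old ND against Young ND, by group (x axis), 1 point per array, circles for the first and triangles for the second title-number series, with group mean and SD (n = 5). Sdhb, Uqcr11, Cox6a1 and Ndufv3 show no Old ND array among the Young ND arrays, while Ndufa4 and Atp5o overlap through second-series Old ND arrays.

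In complex IV, 2 of 17 subunits fell and 1 rose, and the median of -0.09 was the one closest to 0. Of the 10 subunits without restricted tissue use, 1 fell, with a median of -0.21. That was Cox6a1, the widely expressed form of subunit 6a, with levels of 10.57, 10.49, 10.57, 10.54 and 10.47 in Old ND, against 10.97, 11.17, 10.80, 10.99 and 11.11 in Young ND. The Old ND values lay close together and below all Young ND values, and Cox6a1 fell by 0.48 ± 0.08 (1.39-fold, adjusted p = 0.000302). Cox5a had the largest difference below 0, -0.51 ± 0.21, and missed the threshold (adjusted p = 0.141). Its second series was higher than its first by 0.57, and with the series as a block it passed (adjusted p = 0.00936). Cox4i1, the widely expressed form of subunit 4, had a mean of 10.16 ± 0.24 in Old ND, against 10.04 ± 0.31 in Young ND, a difference of 0.13 ± 0.13. Cox5b, Cox6b1, Cox7a2 and Cox8a differed by -0.09, -0.23, -0.31 and -0.19, and Cox7a2l, which helps join complexes III and IV into supercomplexes, by 0.25, all short of the threshold.

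The 7 isoforms of complex IV with restricted tissue use had a median difference of 0.04, with 1 rise and 1 fall. Cox6b2, the testis form of subunit 6b, had levels of 6.79, 6.56, 7.08, 7.04 and 6.77 in Old ND, against 5.98, 5.65, 6.10, 5.96 and 6.12 in Young ND. All Old ND arrays were above all Young ND arrays, and the rise of 0.89 ± 0.11 (1.85-fold, adjusted p = 1.58e-05) was the only one among the 79. It was 0.90 within the first and 0.865 within the second series. Cox7a1, the heart and skeletal muscle form of subunit 7a, had levels of 4.63, 4.57, 4.41, 4.54 and 4.53 in Old ND, against 5.10, 4.86, 4.71, 4.84 and 5.14 in Young ND. The groups did not overlap and it fell by 0.39 ± 0.09 (adjusted p = 0.00519), at levels below that of the median gene. The muscle forms Cox6a2 and Cox8b, the lung form Cox4i2 and the testis forms Cox7b2 and Cox8c differed by between -0.01 and 0.08, each with an adjusted p of at least 0.688.

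**Figure D4:**
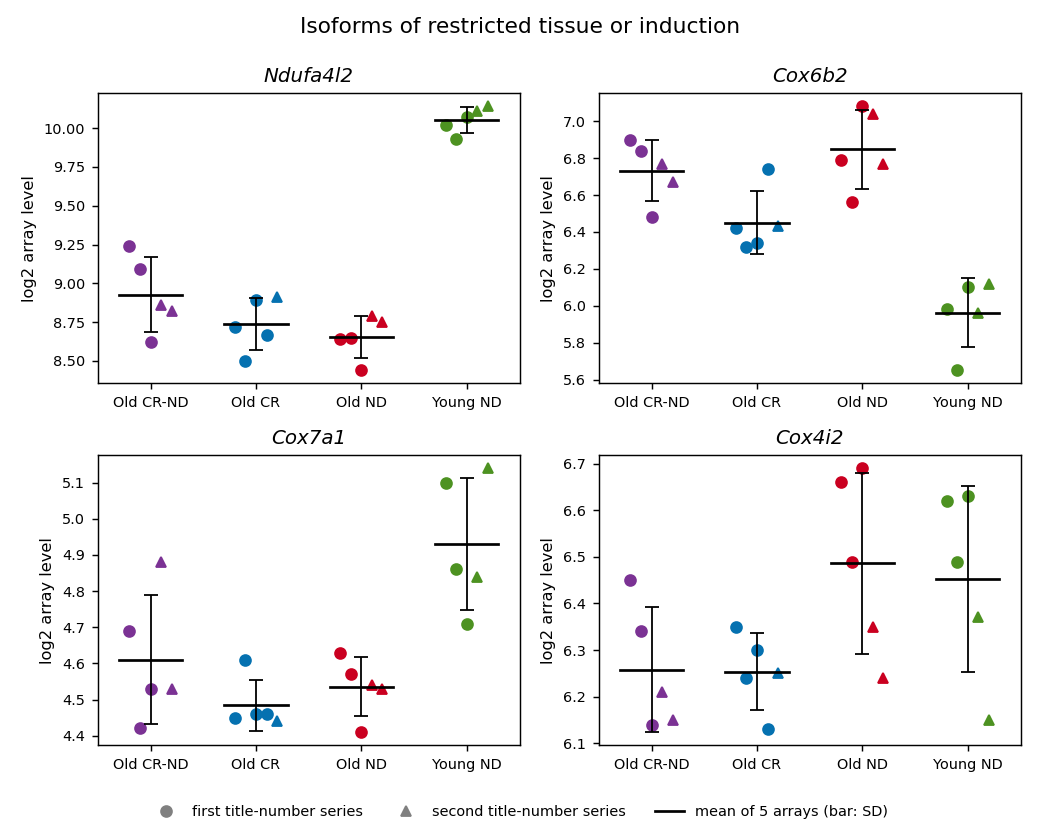
Log2 array levels (y axis) of Ndufa4l2, Cox6b2, Cox7a1 and Cox4i2 by group (x axis), 1 point per array, circles for the first and triangles for the second title-number series, with group mean and SD (n = 5). All old arrays lie below the Young ND arrays for Ndufa4l2 and above them for Cox6b2.

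In complex V, 4 of 17 subunits fell and 0 rose, with a median of -0.13. Of 4 proteins of the peripheral stalk, which holds the catalytic head still, 2 fell. Atp5o, also called OSCP, had levels of 8.62, 8.18, 8.41, 8.87 and 8.64 in Old ND, against 8.98, 9.06, 8.76, 8.91 and 9.15 in Young ND. The groups overlapped through 1 Old ND array of the second series, and Atp5o fell by 0.43 ± 0.11 (1.35-fold, adjusted p = 0.0107). Atp5pb of the stalk fell by 0.38 ± 0.12 (adjusted p = 0.0469). Of the 5 F1 subunits, the small epsilon subunit Atp5e fell by 0.57 ± 0.17 (adjusted p = 0.0290). The catalytic beta subunit Atp5b had a mean of 9.53 ± 0.27 in Old ND, against 9.66 ± 0.12 in Young ND, a difference of -0.13 ± 0.10 (adjusted p = 0.499), and Atp5a1, Atp5c1 and Atp5d differed by -0.12, 0.06 and -0.01. Of 5 small membrane subunits Atp5k fell by 0.47 ± 0.12 (adjusted p = 0.0137). Atp5g1, Atp5g2 and Atp5g3, which encode the same c-ring protein, differed by -0.23, -0.02 and -0.16 and did not pass.

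Of the 18 calls, 11 held without any single array. The other 7 (Ndufa2, Ndufa3, Ndufb4, Ndufs4, Uqcr10, Atp5e and Atp5pb) were each lost when 1 of 4 to 6 arrays was left out. Without Young ND replicate 5, the array with the highest position, 11 subunits passed the threshold, and with the title-number series as a block 29 did (27 fell and 2 rose). For the difference of this comparison between the series, 0 subunits passed (2 at an unadjusted p under 0.05), against 0.0117% of all genes. Of the 58 further probe sets of the subunits, 48 differed in the same direction as the one used. For 14 subunits, 6 of them among the 18, the probe set has a name ending that marks sequence shared with related transcripts.

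Around the subunits, 8 related gene lists were read. None of 15 genes for electron carriers and adenine nucleotide exchange passed the threshold in Old ND against Young ND. Of the 15, 3 had an unadjusted p under 0.05, as had 3924 of all 17097 genes. Among 48 assembly factors 4 fell and 1 rose (10.4% either way and 8.33% lower), shares near the 10.9% and 6.49% of all genes. Uqcc2, needed for complex III assembly, fell by 0.80 ± 0.12 (adjusted p = 6.83e-05). For complex IV, Cox19 fell by 0.62 ± 0.12 and Coa3 by 0.44 ± 0.11 and Surf1 rose by 0.33 ± 0.09, and for complex I Dmac1 fell by 0.31 ± 0.09. Of 73 mitochondrial ribosomal proteins 9 fell and 0 rose, with a median of -0.15, with the smallest adjusted p for Mrpl42 (-0.40), Mrpl54 (-0.48) and Mrpl36 (-0.35). Of 21 import genes 5 fell, among them the inner membrane channel parts Timm23 (-0.56) and Timm17b (-0.95) and the small Tim protein Timm10b (-0.93). Of 16 citric acid cycle genes Idh2 fell by 0.74 and Ogdh by 0.43 along with 1 other, and Suclg2 rose by 0.47. Of 20 regulators of mitochondrial biogenesis, the coactivator Ppargc1b (0.35, at levels of 4.22 in Old ND and 3.86 in Young ND) and the transcription factor Yy1 (0.46) rose and none fell. The extremes of this list were Gabpb1 at -0.71, which encodes a part of GABP, and Polg2 at 0.61, and neither passed. Of the 20, 10 were above and 10 below 0.

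The comparison of Old CR with Old ND asks what differed under restriction in old mice. None of the 79 subunits passed the threshold of limma, against 2.39% of all genes. Of the 79, 16 had an unadjusted p under 0.05, as had 2477 of all 17097 genes. Differences above 0 were found for 61 subunits (77.2%, against 51.1% of all genes), with a median of 0.09 over the subunits and 0.00 over all genes. Without Old ND replicate 2, the array with the lowest position, 53 were above and 26 below 0 and the median was 0.0435. The comparisons of Old ND with Young ND and of Old CR-ND with Old ND use the same Old ND arrays. Their signs are thus not independent of those given here. The part of low Old ND arrays in these signs was not tested. With genes whose highest group mean was below 6 left out, the median was 0.103 over the subunits and 0.057 over the genes kept. With the arrays normalized once more by quantiles, 47 were above and 32 below 0 and the median was 0.04. By complex the medians were 0.12 for I, 0.23 for II, 0.15 for III, -0.02 for IV and 0.07 for V. The Old CR values lay above all Old ND values for 3 subunits, Sdhb, Ndufv3 and Cox6a1, against 2.22% of all genes.

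Sdhb had the smallest adjusted p, with levels of 8.81, 8.73, 8.81, 8.81 and 8.86 in Old CR, against 8.36, 8.35, 8.43, 8.72 and 8.66 in Old ND. The Old CR arrays lay close together and just above the highest Old ND array, a difference of 0.30 ± 0.08 (adjusted p = 0.0620). Ndufv3 had levels of 10.36, 10.20, 10.14, 10.20 and 9.98 in Old CR, against 9.87, 9.80, 9.94, 9.71 and 9.79 in Old ND, a difference of 0.35 ± 0.11 (adjusted p = 0.106). Cox6a1 had levels of 10.66, 10.88, 10.79, 10.80 and 10.69 in Old CR, against 10.57, 10.49, 10.57, 10.54 and 10.47 in Old ND, a difference of 0.24 ± 0.08 (adjusted p = 0.130). In both genes the groups did not overlap, and neither passed. Cox6b2 had levels of 6.42, 6.32, 6.34, 6.74 and 6.43 in Old CR, against 6.79, 6.56, 7.08, 7.04 and 6.77 in Old ND. Only Old CR replicate 4 reached into the Old ND range, and the difference was -0.40 ± 0.11 (adjusted p = 0.0659). Cox6b2 was not alone in its sign, as all 7 restricted-tissue isoforms of complex IV were below 0, with a median of -0.11. Of all 17097 genes, 8227 were below 0. Of the 10 other subunits of that complex 8 were above 0, with a median of 0.11. The 7 isoforms were dimmer, with mean levels over 20 arrays of 3.44 to 6.92, against 7.77 to 10.95 for the 10 others. The part of level in this split was not tested. Ndufa4l2 differed by 0.08 ± 0.10.

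The restriction difference was also read within each title-number series, and its difference between the series was tested in a model added after the data were seen. Within the first series 5 subunits rose, Sdhb (0.41), Cox6c (0.56), Atp5pb (0.43), Ndufa5 (0.39) and Ndufb5 (0.39), and Cox4i2 fell by 0.36, with a median of 0.16, and within the second, where Old CR has 1 array, none passed and the median was 0.055. These 6 calls are 7.59% of the subunits, against 4.65% of all genes in that fit. The last 2 that rose were named after their values were seen. With the series as a block, Sdhb (0.32 ± 0.08, adjusted p = 0.0267) and Cox6c (0.43 ± 0.10, adjusted p = 0.0166) rose, 2.53% of the subunits against 4.16% of all genes in that fit, and the median was 0.13. The restriction difference was larger in the first series for 63 of 79 subunits, with a median of 0.11, against 0.00 for all genes. None passed in limma (2 at an unadjusted p under 0.05), against 0.0% of all genes, and with 1 Old CR array in the second series this test says nothing about stability.

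**Figure D5:**
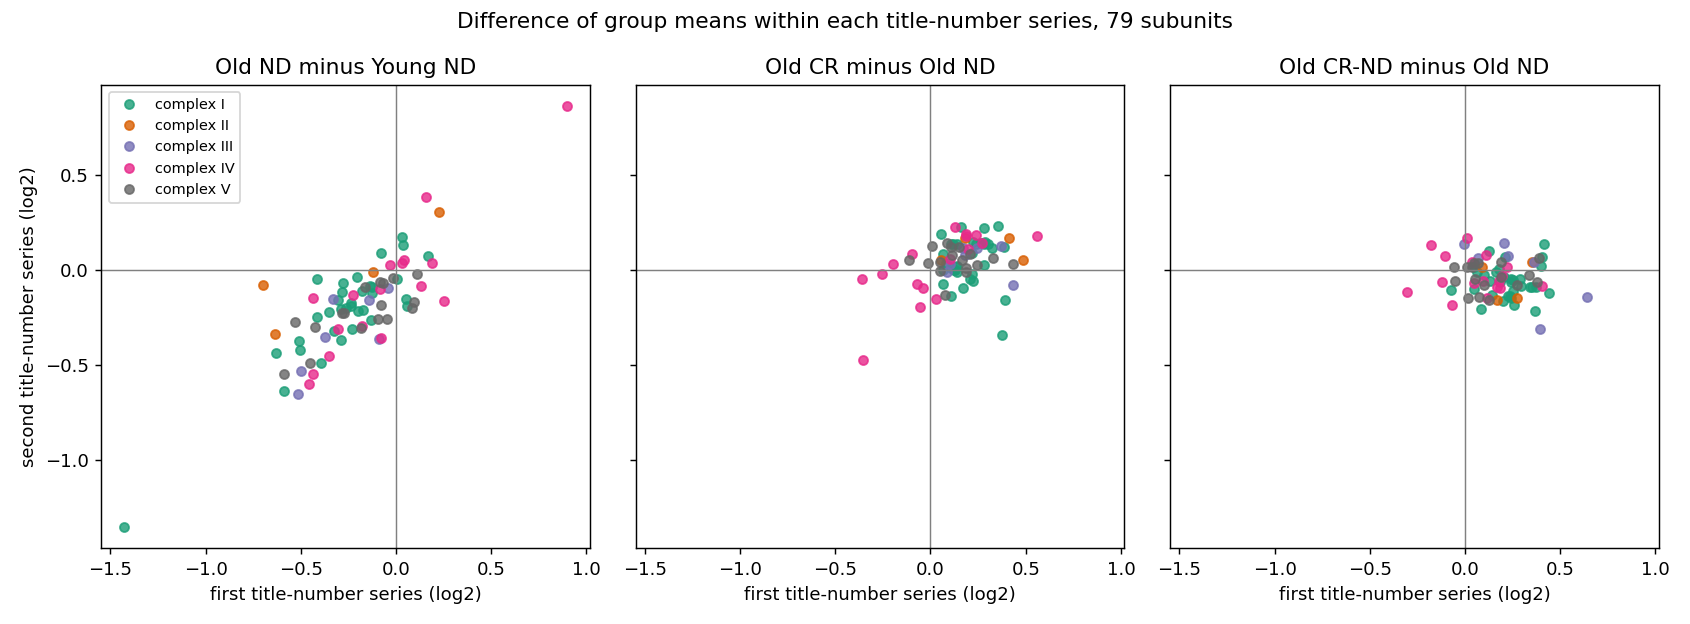
Log2 difference of group means within the first (x axis) and the second (y axis) title-number series for the 79 subunits in 3 comparisons, coloured by complex, each point 1 gene. In Old ND minus Young ND most points lie below 0 in both series, and in Old CR-ND minus Old ND most lie above 0 in the first series and below 0 in the second.

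The comparison of Old CR-ND with Old ND asks what remained after 2 months back on the normal diet. None of the 79 subunits passed the threshold, against 0.00585% of all genes. Of the 79, 7 had an unadjusted p under 0.05, as had 868 of all 17097 genes. Differences above 0 were found for 66 subunits (83.5%, against 51.4% of all genes), with a median of 0.08. This sign was that of the first series, where 70 were above 0 and the median was 0.18, and not that of the second, where 51 were below 0 and the median was -0.055. For the difference between the series, 0 subunits passed and 11 had an unadjusted p under 0.05 (smallest adjusted p = 0.866), against 0.0% of all genes, so this test does not show that the series are alike. Without Old ND replicate 2, the array with the lowest position, the median was 0.03. Sdhb had the smallest p, with levels of 8.76, 8.82, 8.61, 8.82 and 8.65 in Old CR-ND, against 8.36, 8.35, 8.43, 8.72 and 8.66 in Old ND. These overlapped, and the difference was 0.23 ± 0.08 (adjusted p = 0.853). Ndufa4l2, at 8.93 ± 0.24 in Old CR-ND and 8.65 ± 0.14 in Old ND, differed by 0.27 ± 0.10 (adjusted p = 0.878).

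Old CR-ND and Old CR held the same diets in opposite order. None of the subunits passed the threshold between them, against 0.333% of all genes. Of the 79, 2 had an unadjusted p under 0.05, as had 1674 of all 17097 genes. The median was 0.00, with 38 differences above and 40 below 0, against 47.8% and 51.6% of all genes. With the title-number series as a block none passed either, but 27 were above and 52 below 0 and the median was -0.05. The lack of calls does not show that the groups are alike. Cox6b2 averaged 6.73 ± 0.16 in Old CR-ND and 6.45 ± 0.17 in Old CR, a difference of 0.28 ± 0.11 (adjusted p = 0.372). Ndufv3 averaged 9.94 ± 0.24 in Old CR-ND and 10.18 ± 0.14 in Old CR, a difference of -0.24 ± 0.11 (adjusted p = 0.490). Within the second series, with 2 Old CR-ND arrays against 1 Old CR array, the median was -0.125 and 62 subunits were below 0.

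Both diet groups were also set against Young ND, whose 5 arrays the 3 age comparisons share. In Old CR, 6 subunits fell and 2 rose, against 5.56% and 7.11% of all genes, with a median of -0.09, which was -0.03 without Young ND replicate 5. In Old CR-ND, 6 fell and 2 rose, against 3.82% and 3.22% of all genes, with a median of -0.11, which was -0.05 without that array. Ndufa4l2 had levels of 9.24, 9.09, 8.62, 8.86 and 8.82 in Old CR-ND and 8.72, 8.50, 8.89, 8.67 and 8.91 in Old CR. All were below the lowest Young ND array of 9.93, with falls of 1.13 ± 0.10 in Old CR-ND (adjusted p = 7.10e-07) and 1.32 ± 0.10 in Old CR (adjusted p = 4.98e-08). Cox6b2 had levels of 6.90, 6.84, 6.48, 6.77 and 6.67 in Old CR-ND, and in Old CR those given above. All lay above the highest Young ND array of 6.12, with rises of 0.77 ± 0.11 in Old CR-ND and 0.49 ± 0.11 in Old CR. The other subunits that passed in each of the 3 old groups were Uqcr11 (-0.33 in Old CR-ND and -0.36 in Old CR), Cox6a1 (-0.38 and -0.24) and Cox7a1 (-0.32 and -0.45). In Old CR-ND the call of Cox7a1 was lost without any 1 of 5 arrays and that of Uqcr11 without any 1 of 2, and in Old CR the call of Cox6a1 (adjusted p = 0.0469) without any 1 of 8 of the 10.

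Sdha passed in both diet groups, with levels of 9.30, 9.38, 9.27, 9.31 and 9.30 in Old CR-ND, 9.32, 9.30, 9.33, 9.68 and 9.46 in Old CR, and 8.83, 8.92, 9.26, 8.97 and 9.00 in Young ND. Neither diet group overlapped Young ND, and Sdha rose by 0.32 ± 0.08 in Old CR-ND (adjusted p = 0.0248) and by 0.42 ± 0.08 in Old CR (adjusted p = 0.00175). Its other bright probe set differed by 0.38 in Old CR-ND and by 0.17 in Old CR. Averaged over all its probe sets, neither rise passed (adjusted p = 0.379 and 0.384), and in Old CR-ND the call was lost without any 1 of 3 arrays. Sdhb and Ndufv3 fell in Old CR-ND (-0.29 and -0.44, adjusted p = 0.0396 and 0.0194), calls lost without any 1 of 5 arrays for Sdhb and of 4 for Ndufv3. In Old CR they differed by -0.22 and -0.20 and did not pass. Uqcrq and Atp5k fell in Old CR (-0.62 and -0.38, adjusted p = 0.0340 and 0.0404). These calls were lost without any 1 of 5 arrays for Uqcrq and of 7 for Atp5k, and with the mean of probe sets (adjusted p = 0.0852 and 0.0561). In Old CR-ND they differed by -0.34 each and did not pass. Whether these differences from Young ND differ between the diet groups is given by the comparison of Old CR-ND with Old CR, in which none of these genes passed.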

How the data were processed

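RNA of sorted dermal fibroblasts from 20 mice was measured on 20 arrays, 5 in each of 4 groups. The deposited log2 values had been normalized by the authors with RMA and the affy package, per the submitters' processing notes, and versions are not given in the sources used here. No scanner values were used, so probe background could not be read. Precision is limited by having 5 arrays a group. Of 45141 probe sets, 28898 name 1 gene, 551 several and 15692 none in the platform annotation, and 28689 matched a RefSeq gene. Each of 17097 genes was read from the brightest of its probe sets, by the mean of 20 arrays (38 subunits have several, 41 have 1). Groups were compared with limma 3.58.1 in R 4.3.3 (lmFit and eBayes, 1 mean per group, 16 residual and 4.19 prior degrees of freedom), two-sided, with Benjamini-Hochberg adjustment over all genes and a threshold of 0.05. The procedure was tested on simulated data with independent noise for each gene and no difference between title-number series. That test does not cover genes that vary together between arrays. The labels call the samples biological replicates. The alternatives were other probe-set rules, filters on dim genes, normalization, array weights, the title-number series, thresholds and each array left out. Named subunits are those past the threshold (at most 12 per comparison), core subunits, isoform pairs and the extremes of each complex, with up to 3 genes per related list. Subunits and lists were chosen with earlier results of these data known.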

Additional observations from a re-analysis of the deposited data

Results flagged for a closer look

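Over 45 named subunits and the family's position on each array, 184 sets of 5 arrays were examined, 4 of them for the position, and 13 (7.07%), all of subunits, held 1 array whose gap to its nearest neighbour was more than 0.71 of the group's range, where chance gives about 5%. Old CR replicate 5, the only second-series array of its group, was the highest for 4 subunits: Atp5e (8.59, nearest 8.22), Atp5k (8.83, nearest 8.59), Cox4i1 (10.46, nearest 10.18) and Ndufa2 (9.63, nearest 9.43). Old CR-ND replicate 4, also of the second series, was the highest for Ndufc2 (8.35, nearest 8.02) and Uqcrq (9.52, nearest 9.09). Young ND replicate 5, of the second series too, was the highest for Ndufs1 (7.01, nearest 6.84) and Uqcrc2 (10.27, nearest 10.02). Cox6b2 was highest on Old CR replicate 4 (6.74, nearest 6.43) and Cox7a1 on Old CR replicate 2 (4.61, nearest 4.46). Old ND replicate 2 was the lowest for Atp5d (9.84, nearest 10.07) and the highest for Cox8c (6.61, nearest 6.19). Uqcrc1 was highest on Young ND replicate 2 (8.84, nearest 8.66).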

How the results depend on the processing

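The count of subunits past the threshold in Old ND against Young ND (18) was 10 with array weights, 9 with only these groups fitted, 29 with the title-number series as a block, 3 within the second series, 7 at a threshold of 0.01, and 11 to 25 without single arrays, with 11 without Young ND replicate 5. The count in Old CR against Old ND (0) was 1 with the mean of probe sets (Ndufv2), with quantile normalization and with array weights (Cox6b2 in both), 2 with the block, 6 within the first series, 2 at a threshold of 0.10 and 0 to 1 without single arrays. In Old CR against Young ND (8) it was 1 within the second series, 5 at 0.01, 13 at 0.10 and 5 to 13 without single arrays: 5 without Old CR replicate 1 or 4 or Young ND replicate 4 or 5, and 13 without Young ND replicate 3. In Old CR-ND against Young ND (8) it was 5 with only these groups, 15 with the block, 2 within the first and 3 within the second series, 3 at 0.01 and 4 to 13 without single arrays: 4 without Old CR-ND replicate 3, 5 without Old CR-ND replicate 5 or Young ND replicate 1, 2 or 5, and 13 without Young ND replicate 3. The median difference within the second series was -0.055 in Old CR-ND against Old ND, -0.125 in Old CR-ND against Old CR and -0.225 in Old CR-ND against Young ND, and within the first series it was -0.0192 in Old CR and -0.03 in Old CR-ND against Young ND. Leaving out single arrays gave medians of -0.2285 to -0.143 in Old ND against Young ND, 0.0435 to 0.136 in Old CR against Old ND, 0.0295 to 0.122 in Old CR-ND against Old ND, -0.0435 to 0.0195 in Old CR-ND against Old CR, -0.108 to -0.0305 in Old CR against Young ND and -0.1465 to -0.053 in Old CR-ND against Young ND, both nearest to 0 without Young ND replicate 5. Apart from the thresholds and the smaller fits, the cause was not tested. Single genes were followed only in comparisons where their main adjusted p was under 0.10, which leaves out Old CR-ND against Old ND and against Old CR. Among their values, 863 stayed on their side of the threshold, 157 lost a call and 87 gained one. None reversed its sign, but genes picked this way say little about the other subunits. No paired analysis was possible because the labels number no replicates across groups.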

Other observations

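Related mitochondrial genes were also read in Old CR against Old ND, as values only. The complex III assembly factor Uqcc2 rose by 0.49 (adjusted p = 0.0270), the complex IV assembly factor Cox19 by 0.49 (adjusted p = 0.0408) and the import channel part Timm17a by 0.39 (adjusted p = 0.01), all by limma over all genes, of which 2.39% passed. Of 73 mitochondrial ribosomal proteins 58 differed above 0, with a median of 0.12, and of 16 citric acid cycle genes 15 did, against 51.1% of all genes. None of these 73 (20 at an unadjusted p under 0.05) or 16 (3 at one) passed in limma. Of all 17097 genes, 2477 had an unadjusted p under 0.05 in that comparison.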
